A study of Mus musculus with 36 samples.

Results

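Dbp, Tef and Hlf, the 3 proline and acidic amino acid-rich basic leucine zipper (PAR bZIP) transcription factors, and Nfil3 (also called E4bp4), the repressor that competes with them, were followed in mouse liver with and without the insulin receptor in hepatocytes. The members were taken by gene name: every probe named Dbp, Tef, Hlf or Nfil3 in the scanner files, which gave 4 genes and 9 of the 56605 probes on the array. All 9 probes were well above background on all 36 arrays, so none was lost to the filter on dim probes, and the 4 genes were fitted together with the others among 22892 genes.

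Total RNA from the livers of 36 male mice was read on 36 arrays, and each of 6 groups held 6 mice. Knockout mice (IRLKO, IRhep-/-) carried loxP sites around the fourth exon of the insulin receptor gene and a tamoxifen-inducible Cre, TTR-CreTam, which the transthyretin promoter drives in the liver. Control mice (IRLWT, IRhep+/+) kept the receptor. All were 11 weeks old on a C57BL/6J background, ate chow freely, and were sampled at Zeitgeber time (ZT) 8, 12 or 16, where ZT counts hours from lights-on and lights went off at ZT12. The labels give no separate treatment, no time of tamoxifen dosing, and no statement of whether controls carried the Cre. The question that the groups pose for these genes is whether the clock's output factors run through the day in the same way when hepatocytes lack the receptor.

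The PAR bZIP factors bind the D-box, a short palindrome-like DNA element, and activate genes that carry it. Nfil3 binds the same element and represses, and in liver the activators and the repressor are known to cycle in opposite phase, so that D-box genes alternate between being driven and being silenced. Dbp and Tef are transcribed through E-boxes by CLOCK and BMAL1, and Nfil3 is held down by the REV-ERB repressors, which are themselves products of the clock. Known outputs include detoxification enzymes and their regulators, which is why mice without all 3 PAR bZIP factors handle drugs poorly.

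The 5 upstream windows of these genes in RefSeq (build GRCm38.p6, the 250 bases before each annotated start, read on the gene's own strand) were searched on both strands for the E-box CACGTG, for D-boxes spelled TTATGTAA or TTACGTAA, and for the half-site AGGTCA that REV-ERB and ROR receptors bind. Those of Dbp, Tef and Nfil3 are shown because these 3 genes changed most with time. Capitals mark a match. The Dbp window, at chr7:45704997-45705246 on the plus strand, held none of these letters, as did that of Hlf at chr11:90390918-90391167 on the minus strand. The windows of the 2 Tef starts, at chr15:81802423-81802672 and chr15:81811164-81811413 on the plus strand, each held a CACGTG, from base -127 to -122 and from base -138 to -133 before the start. The Nfil3 window, at chr13:52981040-52981289 on the minus strand, held TGACCT, the half-site on the other strand, from base -12 to -7.
Dbp: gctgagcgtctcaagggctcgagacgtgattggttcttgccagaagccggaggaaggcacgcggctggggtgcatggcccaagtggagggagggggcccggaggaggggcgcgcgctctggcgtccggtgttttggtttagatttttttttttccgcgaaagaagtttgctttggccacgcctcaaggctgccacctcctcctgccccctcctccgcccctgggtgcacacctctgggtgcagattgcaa
Tef, first start: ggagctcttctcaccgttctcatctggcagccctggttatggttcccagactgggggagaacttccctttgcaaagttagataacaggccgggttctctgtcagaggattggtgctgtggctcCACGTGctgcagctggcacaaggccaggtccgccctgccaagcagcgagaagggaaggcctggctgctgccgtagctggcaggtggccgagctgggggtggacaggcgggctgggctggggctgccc
Tef, second start: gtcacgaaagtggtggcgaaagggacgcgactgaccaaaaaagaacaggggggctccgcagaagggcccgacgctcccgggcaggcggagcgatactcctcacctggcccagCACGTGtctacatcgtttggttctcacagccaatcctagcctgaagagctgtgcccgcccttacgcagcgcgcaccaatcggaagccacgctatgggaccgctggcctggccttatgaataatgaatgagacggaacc
Nfil3: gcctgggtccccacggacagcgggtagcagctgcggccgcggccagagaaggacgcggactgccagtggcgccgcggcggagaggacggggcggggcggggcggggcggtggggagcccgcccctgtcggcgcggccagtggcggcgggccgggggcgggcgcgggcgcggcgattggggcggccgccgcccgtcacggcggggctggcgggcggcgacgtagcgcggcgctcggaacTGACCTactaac
Over 32851 RefSeq windows of the same length, 6.02% held CACGTG, 0.819% TTATGTAA, 0.113% TTACGTAA and 14.0% AGGTCA on either strand. A match is only a run of letters, and the known E-boxes of Dbp also lie inside the gene, outside this window.

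The probes were placed on build mm9 by the files. The probe that represents a gene below is the one with the highest mean over all arrays: for Dbp A_51_P180492, at chr7:52965265-52965324; for Tef A_55_P1979893, at chr15:81657221-81657280; for Hlf A_55_P2900363, at chr11:90201236-90201295; and for Nfil3 A_55_P2035320, at chr13:53062578-53062637. Dbp had a second probe that shared no base with the first, and Tef had 3 more that shared none with it or with each other. The second Nfil3 probe shared 53 of its 60 bases with the first, so the Nfil3 probes are close to a repeat reading. One Tef probe, A_52_P173309, matched 60 bases that lie over a span of 2106 bases in the genome (chr15:81651816-81653921), so it crosses at least 1 intron and is shown because it reads spliced Tef RNA.
Tef probe A_52_P173309: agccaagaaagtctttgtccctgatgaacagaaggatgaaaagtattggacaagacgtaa

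Values are log2 of the processed signal after division by the array's own 75th percentile, so 0 is that percentile and a difference of 1 is a doubling. The 75th percentile itself ran from 311 to 525 intensity units over the arrays, and 53.7% to 63.1% of spots were well above background. Differences were tested with limma over all 22892 genes, with wash batch (batches 1 to 3, of 11, 12 and 13 arrays; every group had mice in all of them) in the fit and Benjamini-Hochberg adjustment, and a gene is called where the adjusted p is under 0.05. Insr itself was lower in knockouts at every time, by 1.77, 1.88 and 1.65 on the log2 scale at ZT8, ZT12 and ZT16. Markers of several cell types moved with genotype at some of the times. The summed level of 6 hepatocyte markers had medians of 2384, 2476 and 2572 in controls and 1627, 1971 and 1974 in knockouts at ZT8, ZT12 and ZT16, where 1 is the 75th percentile, and every marker was well above background on all arrays. The sum is weighted to the brightest markers, Alb and Ttr. Of the 6 markers 2, 3 and 2 were called lower at ZT8, ZT12 and ZT16, and 0, 1 and 0 higher. Of all genes 18.7%, 22.7% and 20.0% were called lower. The list had medians of -0.10, -0.08 and -0.04. Ttr, the gene whose promoter drives the Cre, fell by 1.12 at ZT8, and Alb fell by 0.41. At that time the means of Cps1 and Tat were higher in knockouts, and those of Apoa1 and Apob slightly lower. Summed over 5 Kupffer cell markers, the medians were 47.4, 43.2 and 43.8 in controls and 79.6, 79.6 and 75.4 in knockouts, with ranges that overlapped between genotypes at every time. Of the 5 Kupffer markers 1, 4 and 2 were called higher at ZT8, ZT12 and ZT16, of the 5 endothelial markers 0, 5 and 4, and of the 5 stellate cell markers 0, 3 and 2, where 16.7%, 19.6% and 20.0% of all genes were called higher. Of the 5 bile duct markers 0, 0 and 1 were called higher and 0, 1 and 0 lower, and some were not well above background on every array. At ZT8 1 bile duct marker was called without knockout ZT8 replicate 3, and at ZT12 0 were with quantile normalization, among other settings. The Kupffer count at ZT8 was 0 without knockout ZT8 replicate 3 and 0 to 3 over the alternatives, that at ZT12 fell to 2 with only the groups compared, the endothelial count at ZT16 to 2 with the mean of all probes, and the stellate count at ZT12 was 4 without that array and at ZT16 fell to 1 without the filter on dim probes or with slide as a fixed block. In such bulk RNA fewer cells of a type and less RNA per cell cannot be told apart, and the part of these shifts in the results below was not tested.

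One array stood apart for these genes. In the knockout ZT8 group replicate 3 had the lowest value of all 6 mice for Dbp (5.98, others 6.45 to 6.77), Tef (6.24, others 6.80 to 7.14), Hlf (0.30, others 0.57 to 1.69) and Nfil3 (0.34, others 1.63 to 2.06). Its share of spots well above background was 62.1%, within the 56.2% to 62.4% of the other 5, and its 75th percentile signal of 495 was above their 331 to 482. Its summed Kupffer markers stood at 133, above 50.2 to 115 in the other 5, and its summed hepatocyte markers at 1493, below 1510 to 2055. Calls of the 4 genes that turn on it are given with and without it, as are the list counts that it moved.

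**Figure D1:**
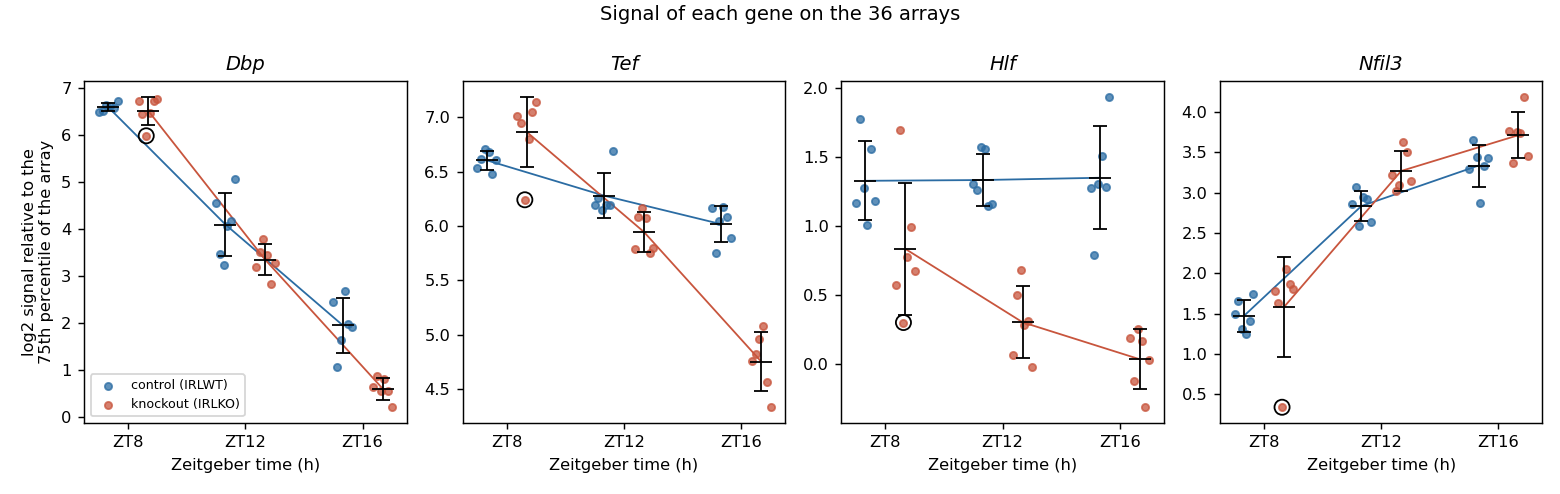
Log2 signal relative to the array's 75th percentile (vertical axis) against Zeitgeber time in hours (horizontal axis) for each gene; each dot is 1 mouse, bars are mean and SD of 6 mice, and lines join the means. Dbp and Tef descend and Nfil3 climbs from ZT8 to ZT16 in both genotypes, Hlf descends in knockouts alone in this plot, and the circled dot is knockout ZT8 replicate 3.

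Dbp, the PAR bZIP factor with the deepest daily swing in liver, was high at ZT8 in both genotypes and fell steeply into the dark phase, further in knockouts than in controls. In controls the 6 mice read 6.48, 6.52, 6.63, 6.61, 6.57 and 6.72 at ZT8, 4.56, 3.47, 3.24, 4.06, 4.16 and 5.07 at ZT12, and 2.45, 1.06, 1.63, 2.68, 1.97 and 1.91 at ZT16. In knockouts they read 6.72, 6.45, 5.98, 6.46, 6.72 and 6.77 at ZT8, 3.19, 3.51, 3.79, 3.46, 2.83 and 3.27 at ZT12, and 0.64, 0.87, 0.56, 0.81, 0.55 and 0.21 at ZT16. Within a genotype no 2 times overlapped. Between genotypes the mice overlapped at ZT8 and ZT12, and at ZT16 all 6 knockouts lay below all 6 controls.

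From ZT8 to ZT16 Dbp fell by 4.66 ± 0.24 (SE) on the log2 scale in controls (limma adjusted p = 1.58e-14) and fell by 5.88 ± 0.24 in knockouts (adjusted p = 4.12e-17), a signal 25.3 and 59.0 times lower. Ranked by the size of this fall, Dbp stood 4th among the 22892 genes in controls and 2nd in knockouts. The fall was spread over both intervals, 2.50 and then 2.16 in controls, 3.12 and then 2.76 in knockouts. Of the 4 genes 3 were called between ZT8 and ZT16 in controls, where 26.6% of all genes were, and 4 in knockouts, where 28.9% were. Between ZT8 and ZT12 it was 2 in controls (14.8% of all genes) and 4 in knockouts (13.2%), and between ZT12 and ZT16 it was 1 in controls (3.63%) and 2 in knockouts (12.6%). The mice at ZT8 and ZT16 did not overlap for 3 of the 4 genes in controls, Hlf being the exception, beside 15.8% of all genes, and for all 4 in knockouts, beside 9.89%.

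The genotypes did not differ in Dbp beyond the spread at ZT8, with a log2 difference of -0.10 (95% interval -0.59 to 0.39, adjusted p = 0.788). Dbp was lower in knockouts by 0.72 ± 0.24 at ZT12 (adjusted p = 0.0159), then by 1.32 ± 0.24 at ZT16 (adjusted p = 5.7e-05), where the knockout signal was 0.400 of control (95% interval 0.284 to 0.562). At ZT12 the call was lost when only the 12 arrays compared were fitted (adjusted p = 0.0857) and when control ZT12 replicate 6 was left out (log2 difference -0.55, adjusted p = 0.0553). Within the 3 wash batches the ZT16 differences were -1.53, -1.45 and -1.07, and the ZT12 differences -0.82, -0.43 and -0.996. The genotype effect at ZT16 was 1.22 ± 0.34 further down than at ZT8 (adjusted p = 0.0186; 9.75% of genes were called in this test), though not with slide in place of wash batch (-0.998, adjusted p = 0.0635). The F test over the 3 times gave an adjusted p of 0.0541 for Dbp, and 0.0269 without knockout ZT8 replicate 3. The second Dbp probe, A_55_P2032079, gave -0.21, -0.79 and -1.40 at the 3 times.

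Tef, a second D-box activator with a shallower rhythm, changed little through the day in controls and much more in knockouts. The control mice read 6.53, 6.61, 6.71, 6.68, 6.48 and 6.61 at ZT8, 6.20, 6.26, 6.15, 6.19, 6.19 and 6.69 at ZT12, and 6.17, 5.75, 6.04, 6.17, 6.08 and 5.89 at ZT16. The knockouts read 7.01, 6.95, 6.24, 6.80, 7.04 and 7.14 at ZT8, 5.79, 6.08, 6.17, 6.08, 5.75 and 5.80 at ZT12, and 4.76, 4.82, 4.96, 5.08, 4.57 and 4.34 at ZT16. At ZT8, 5 of 6 knockouts lay above every control. At ZT16 all 6 knockouts lay below every control, and below every other mouse in the study.

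From ZT8 to ZT16 Tef fell by 0.62 ± 0.12 in controls (limma adjusted p = 2.6e-04) and by 2.10 ± 0.12 in knockouts (adjusted p = 8.3e-14), to 65.2% and 23.4% of the ZT8 signal. Its place by size of fall was 1325th of 22892 genes in controls and 55th in knockouts. In controls neither single interval passed the test (-0.32, adjusted p = 0.0708, and -0.29, adjusted p = 0.208). The first did under 6 alternative settings, among them a fit of only the groups compared. It also did without knockout ZT8 replicate 3 (adjusted p = 0.0335) and without control ZT12 replicate 6 (-0.39, adjusted p = 0.0299). In knockouts both did (-0.89 and -1.20).

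The genotype difference in Tef ran from 0.25 ± 0.12 at ZT8 (95% interval 0.00 to 0.50, adjusted p = 0.118) to -0.32 ± 0.12 at ZT12 (adjusted p = 0.0354), then -1.23 ± 0.12 at ZT16 (adjusted p = 2.5e-09). Without knockout ZT8 replicate 3 the ZT8 difference was 0.36 and called (adjusted p = 0.0126), higher in knockouts. The ZT12 call was lost without the filter on dim probes, in a fit of the 12 arrays alone and when 1 of 6 single arrays was left out in turn (log2 difference -0.39 to -0.26 over all arrays left out singly). Within wash batches the ZT16 differences were -1.24, -1.44 and -1.05. The effect at ZT16 lay 1.48 ± 0.17 below that at ZT8 (adjusted p = 1.9e-06) and 0.91 ± 0.17 below that at ZT12 (adjusted p = 0.00533; 1.96% of genes were called in that test). Between ZT12 and ZT8 it differed by -0.57 ± 0.17, not called (adjusted p = 0.107, where 1.25% of genes were called), and -0.68 without knockout ZT8 replicate 3, which was called (adjusted p = 0.0117). For Tef the F test over the 3 times gave an adjusted p of 7.0e-06, where 8.46% of genes were called.

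The other Tef probes let the gene be read at 3 more places, at lower signal. Over all arrays A_52_P173309 averaged -2.44, A_52_P485573 3.04 and A_55_P2912692 -0.08, against 6.08 for the representing probe. A_55_P2912692 also spread widely, with an SD of 1.01 in knockouts at ZT12. Over all 34678 probes fitted, 33.7%, 39.3% and 37.9% were called at ZT8, ZT12 and ZT16. The spliced-RNA probe A_52_P173309 gave 0.44 at ZT8 (adjusted p = 0.0495), -0.44 at ZT12 (adjusted p = 0.0432), then -0.82 at ZT16 (adjusted p = 4.1e-04), higher and then lower in knockouts. Probe A_52_P485573, just upstream of the representing probe at chr15:81656928-81656987, gave 0.17, -0.32 and -1.37, the latter pair called. Probe A_55_P2912692, at chr15:81647233-81647292, lay below 0 at all 3 times (-0.41, -0.50 and -1.17) and was called at ZT16 alone (adjusted p = 0.00871). It also fell by 1.62 ± 0.35 in controls from ZT8 to ZT16, against 0.62 for the representing probe. The files pair A_52_P173309 and A_52_P485573 with the same transcript. They pair the representing probe with another, and A_55_P2912692 with yet another. Whether the transcripts differ in rhythm was not tested.

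**Figure D2:**
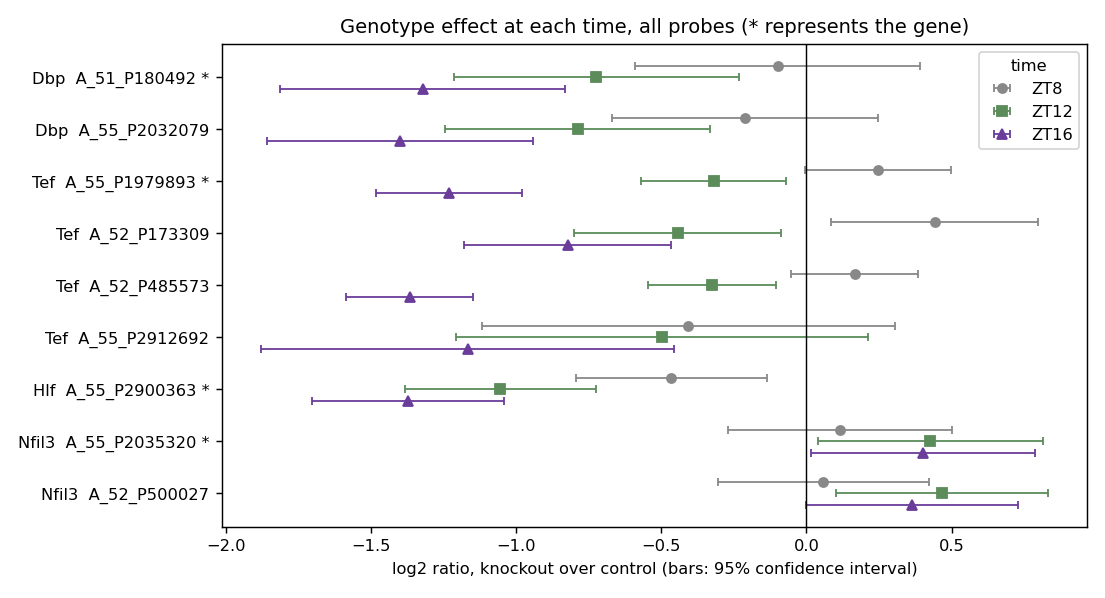
Log2 ratio of knockout over control (horizontal axis) for each of the 9 probes (rows) at ZT8 (circles), ZT12 (squares) and ZT16 (triangles), with 95% confidence intervals from limma; an asterisk marks the probe that represents the gene. At ZT16 all 7 probes of Dbp, Tef and Hlf lie below 0 with their whole interval, and both Nfil3 probes lie above 0.

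Hlf, the third PAR bZIP factor, was level through the sampled hours in controls and lower in knockouts from ZT8 on. In controls the mice read 1.16, 1.77, 1.28, 1.01, 1.55 and 1.18 at ZT8, 1.30, 1.26, 1.57, 1.56, 1.15 and 1.15 at ZT12, and 1.27, 0.79, 1.31, 1.5, 1.28 and 1.93 at ZT16. In knockouts they read 0.57, 1.69, 0.30, 0.77, 0.99 and 0.68 at ZT8, 0.07, 0.50, 0.68, 0.28, 0.31 and -0.02 at ZT12, and 0.19, -0.12, 0.25, 0.17, -0.31 and 0.03 at ZT16. Replicate 2 of the knockouts at ZT8 sat among the controls, and at ZT12 and ZT16 every knockout lay below every control.

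In controls Hlf differed by 0.08 ± 0.16 between ZT8 and ZT16 (95% interval -0.25 to 0.41, limma adjusted p = 0.773). In knockouts it fell by 0.82 ± 0.16 (adjusted p = 1.9e-04), of which 0.58 came before ZT12 (adjusted p = 0.0160). That first interval was not called in a fit of those arrays alone (adjusted p = 0.155). The genotype difference was -0.47 ± 0.16 at ZT8 (adjusted p = 0.0239), -1.05 ± 0.16 at ZT12 (adjusted p = 4.4e-06), then -1.37 ± 0.16 at ZT16 (adjusted p = 5.7e-08). At ZT16 the knockout signal was 0.386 of control (95% interval 0.307 to 0.485). The ZT8 call rested on few arrays: without knockout ZT8 replicate 3 the difference was -0.30 (adjusted p = 0.105), and it was also lost without control ZT8 replicate 2 and when only the 12 ZT8 arrays were fitted (adjusted p = 0.118). Within wash batches the differences at ZT16 were -1.79, -1.35 and -1.17. The effect deepened by 0.91 ± 0.23 from ZT8 to ZT16 (adjusted p = 0.00906), and the F test over the times gave an adjusted p of 0.0267.

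Nfil3, the D-box repressor, ran the other way: it was lowest at ZT8 and rose into the dark phase in both genotypes. The control mice read 1.49, 1.66, 1.31, 1.24, 1.40 and 1.74 at ZT8, 2.86, 3.06, 2.58, 2.94, 2.92 and 2.63 at ZT12, and 3.29, 3.65, 3.43, 2.87, 3.33 and 3.42 at ZT16. The knockouts read 1.78, 1.63, 0.34, 2.06, 1.87 and 1.80 at ZT8, 3.21, 3.02, 3.09, 3.63, 3.50 and 3.14 at ZT12, and 3.76, 3.37, 3.75, 3.73, 4.19 and 3.46 at ZT16. Every mouse at ZT8 lay below every mouse at the later times. The genotypes overlapped at each time, with 5 of 6 knockouts at ZT16 above 5 of 6 controls.

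Nfil3 rose by 1.84 ± 0.19 from ZT8 to ZT16 in controls (limma adjusted p = 1.1e-08) and by 2.12 ± 0.19 in knockouts (adjusted p = 1.1e-09), a signal 3.57 and 4.35 times higher. The rise ranked 93rd and 60th among the 22892 genes. Most of it came before lights-off, 1.36 in controls and 1.67 in knockouts, and the later step (0.48 and 0.45) did not pass the test in either genotype (adjusted p = 0.177 and 0.124). It was called in both without knockout ZT8 replicate 3 (adjusted p = 0.0251 and 0.0182).

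The genotype difference in Nfil3 was 0.12 ± 0.19 at ZT8 (95% interval -0.27 to 0.50, limma adjusted p = 0.678), 0.43 ± 0.19 at ZT12 (0.04 to 0.81, adjusted p = 0.0693), then 0.40 ± 0.19 at ZT16 (0.01 to 0.79, adjusted p = 0.0913). None was called. Without knockout ZT8 replicate 3 the differences were 0.37, 0.42 and 0.38 and all 3 were called (adjusted p = 0.0402, 0.0110 and 0.0234). With all arrays, the ZT12 and ZT16 differences were called after quantile normalization (0.54 and 0.53) and in the authors' deposited table (0.53 at both). A two-sided exact permutation test, which uses only the 12 arrays of a time, gave adjusted p = 0.00866 at ZT12 and 0.0371 at ZT16 over the 12 comparisons of the 4 genes. The ZT16 call was lost with normexp (adjusted p = 0.0519) and in 9 of 12 cases with 1 array left out. The smallest possible p of this test was 0.00216. The second Nfil3 probe, A_52_P500027, was called at ZT12 (0.47, limma adjusted p = 0.0375). It was not called at ZT8 (0.059, adjusted p = 0.836) or ZT16 (0.36, adjusted p = 0.109). The Nfil3 effect did not differ between times beyond its error (0.29 ± 0.27 between ZT8 and ZT16, F test adjusted p = 0.730). Within wash batch 1, which holds replicate 3, the ZT8 difference was -0.54, and within batches 2 and 3 it was 0.47 and 0.39.

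Across the 4 genes, 1, 3 and 3 were called between genotypes at ZT8, ZT12 and ZT16, all lower in knockouts. All genes were called at 35.5%, 42.3% and 40.0% in these tests, lower at 18.7%, 22.7% and 20.0%, and higher at 16.7%, 19.6% and 20.0%. Without knockout ZT8 replicate 3 the counts were 2 higher at ZT8, Tef and Nfil3, and 3 lower with 1 higher at each later time. The shares of all genes given here, and those beside the lists, are from the fit with all arrays. Leaving that array out also raised the number of all genes called in some tests, so its counts cannot be set against these shares. Groups without overlap numbered 0, 1 and 3 of the 4 genes, against 15.5%, 21.4% and 19.3% of all genes. The exact permutation test called the 3 activators at ZT12 and ZT16 (adjusted p from 0.00649 to 0.0487) and none of the 4 genes at ZT8. The highest of these, Dbp at ZT12, did not pass with quantile normalization (adjusted p = 0.0909), normexp (0.0519), the authors' table (0.112) or in 9 of 12 cases with 1 array left out.

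Ordered by level, the 6 groups fell into different sequences for the 4 genes. Dbp climbed from knockout ZT16 through control ZT16, knockout ZT12 and control ZT12 to both ZT8 groups, and only the genotypes at ZT12 and at ZT8 overlapped as neighbours. Nfil3 ran from both ZT8 groups, which overlapped, over a gap to control ZT12, knockout ZT12, control ZT16 and knockout ZT16, each overlapping the next. For Tef knockout ZT16 stood alone at the bottom, and all other neighbours overlapped. For Hlf the 3 knockout groups lay below the 3 control groups, and every pair of neighbours overlapped.

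Within groups, some of the genes also varied together from array to array. After removal of the group and wash batch means, Dbp and Tef correlated over the 36 arrays with Pearson r = 0.705 and Spearman rho = 0.715 (permutation p = 1e-05 for both, the smallest that 100000 resamples can give, adjusted p = 6e-05 over 6 pairs of genes). The relation remained with the 2 arrays farthest from the median in Dbp left out (r = 0.630) and within each wash batch (0.713, 0.705 and 0.801). Tef and Hlf gave r = 0.606 (adjusted permutation p = 2.4e-04) and rho = 0.443 (adjusted p = 0.0220), with r = 0.409 without the 2 farthest arrays and 0.744, 0.265 and 0.565 within wash batches. The other 4 pairs did not pass. The permutation ran over all 36 arrays and not within groups. Since the spread differed between groups (SD of Dbp 0.09 in controls at ZT8 and 0.68 at ZT12), its p is approximate. Whether array or RNA quality takes part in these correlations was not tested. For Dbp and Nfil3 r was -0.05 within groups, with 0.535, 0.143 and -0.591 in the 3 wash batches and -0.34 without knockout ZT8 replicate 3, while over all 36 arrays, with group means kept, it was -0.903. That second value describes the shared time course of groups and carries no p.

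**Figure D3:**
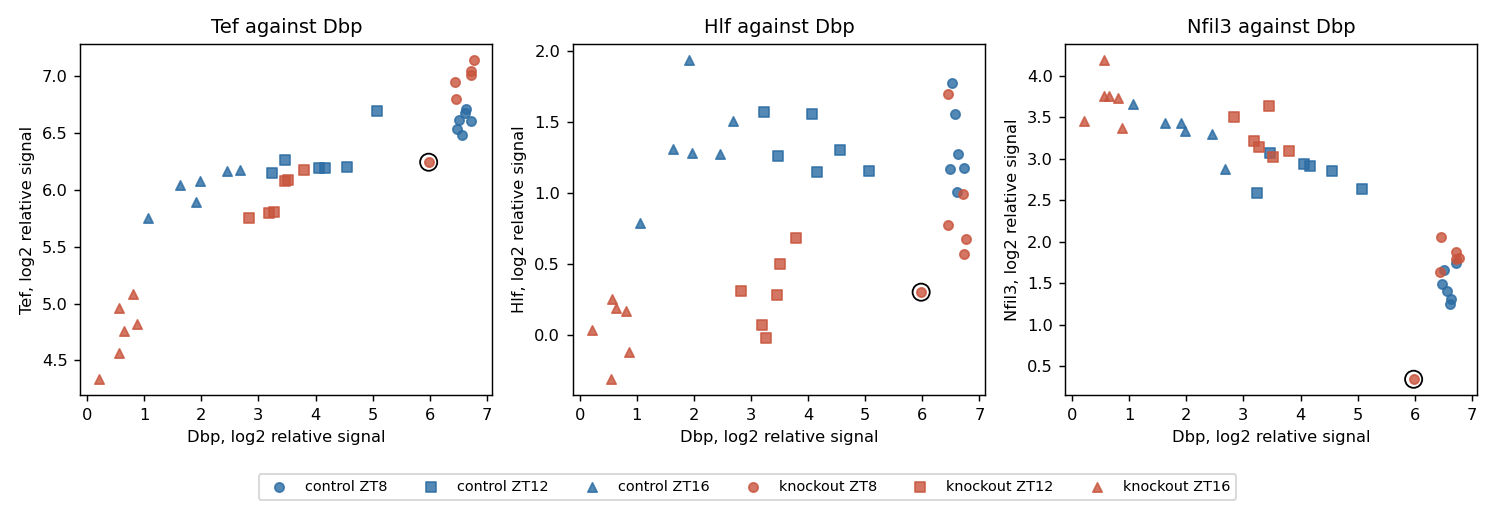
Log2 relative signal of Tef, Hlf and Nfil3 (vertical axes) against that of Dbp (horizontal axes), 1 point per mouse, blue for control and red for knockout, with the time as the symbol; the circle marks knockout ZT8 replicate 3. Tef rises with Dbp and drops away in the ZT16 knockouts, Hlf lies lower in knockouts at ZT12 and ZT16 and overlaps at ZT8, and Nfil3 declines as Dbp rises.

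The genes most like each member over the 36 arrays, by Pearson r after removal of wash batch means, were picked from 13818 genes that were well above background on every array and had a gene symbol in the reference table. For Dbp they were Nr1d2, which encodes the clock repressor REV-ERB beta (r = 0.976), Fbxl20 (0.942) and Rnf19b (0.942). For Tef they were Chn2 (0.952), the clock gene Per3 (0.947) and Arl5b (0.942), and Fbxo44 was lowest (-0.908). For Hlf they were Nr1h4, the bile acid receptor (0.938), the nuclear exporter Xpo7 (0.924) and the folate transporter Slc46a1 (0.922), and Lmo2 was lowest (-0.908). For Nfil3 they were Gfod2 (0.930), Pnrc1 (0.924) and Hnrnpc, an RNA-binding protein (0.893), and the helicase Mov10 was lowest (-0.895). These points share their 6 groups, so the values describe group patterns.

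The genes upstream of the D-box factors are listed first. Of the 10 measured genes of the E-box loop, 5, 4 and 7 were called between genotypes at ZT8, ZT12 and ZT16, all lower in knockouts, where 18.7%, 22.7% and 20.0% of all genes were called lower and 35.5%, 42.3% and 40.0% in either direction. Without knockout ZT8 replicate 3 the counts were also 5, 4 and 7, and over probes well above background on all arrays that at ZT8 was 2. That last setting drops the probes used here for Arntl, Bhlhe41 and Ciart, so its count is not over the same probes. The list had medians of -0.38, -0.18 and -0.90 beside 0.01, -0.02 and 0.00 over all genes. Per2, a repressor of CLOCK and BMAL1, was not called at ZT8 (-0.11) and fell below control by 0.90 at ZT12 and 2.26 at ZT16. Per3 gave -0.15, -0.78 and -1.90, the ZT12 call being absent in the authors' table (-0.12). Per1 gave 0.07 and 0.02, neither called, and then -1.81. Clock and Arntl, which encode CLOCK and BMAL1, were chosen for mention after their values were seen. They were lower in knockouts at ZT8 (-0.70 and -1.41) and not called at ZT12 or ZT16. At ZT8 Arntl was well above background on 2 of 6 knockout and 5 of 6 control arrays, so its difference there is not exact. Between ZT8 and ZT16 the genotype effect differed for 8 of the 10 genes, downward for 5. It differed upward for Clock (0.73, limma adjusted p = 1.3e-04), Arntl (1.89, adjusted p = 0.00782, with the same limit at ZT8) and Bhlhe41. Bhlhe41 was well above background in controls at ZT8 alone, so at ZT16 neither genotype gave a measured level. Ciart, another E-box-driven repressor, was called at each time (-1.18, -2.93 and -5.29). It was not well above background on any knockout array at ZT16, so its difference there is at least 13.9-fold lower (bright group's mean against the lowest signal well above background on each array; limma adjusted p = 2.0e-14).

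The RORE loop holds the REV-ERB repressors, products of Nr1d1 and Nr1d2, and the ROR activators such as that of Rora. Nr1d2 gave 0.36 and 0.10 at ZT8 and ZT12, neither called, and -0.70 at ZT16 (limma adjusted p = 0.00171). At ZT8 it was called higher with quantile normalization (0.43, adjusted p = 0.0370), in the authors' deposited table (0.44, adjusted p = 0.0297) and with only the groups compared (adjusted p = 0.0360). Nr1d1 gave -0.67 at ZT8 (adjusted p = 0.0368), -0.43 at ZT12 and 0.61 at ZT16 (adjusted p = 0.0530), the last 2 not called. Its ZT8 call was lost with quantile normalization, without the filter, with the replicate block and when any of 6 single arrays was left out, knockout ZT8 replicate 3 among them (-0.62, adjusted p = 0.0737). At ZT12 it was called lower with normexp (adjusted p = 0.0301). At ZT16 it was called higher without wash batch, with slide as a fixed or random block, with array weights (adjusted p from 0.00893 to 0.0478) and without any of 8 single arrays. Rora was called at ZT12 (-0.24) and ZT16 (-0.21), and both calls ended with quantile normalization (adjusted p = 0.289 and 0.364). Both also ended in the authors' table (0.420 and 0.244), with slide as a fixed block and with the mean of all probes. The ZT12 call was lost too with only the groups compared (0.123) and without control ZT12 replicate 3 or 6. That at ZT16 was lost with normexp (0.0501), without the filter (0.0867) and when any of many single arrays was left out. Of the 6 measured clock genes with known D-boxes, which the lists above also hold, 1, 3 and 5 were called, all lower, beside the same shares of all genes. At ZT8 the count was 0 without knockout ZT8 replicate 3, without the filter, over probes well above background on all arrays and with the replicate block, and 2 in the authors' table and with only the groups compared. The probe used here for Nr1d1 is not among those well above background on all arrays. At ZT12 it was 1 in the authors' table.

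Among 13 measured liver genes known as PAR bZIP targets, 7, 10 and 7 were called at ZT8, ZT12 and ZT16, where 35.5%, 42.3% and 40.0% of all genes were, and at ZT16 all 7 were lower. Without knockout ZT8 replicate 3 they were 8, 10 and 7. At ZT8 4 were higher and 3 lower, and at ZT12 3 were higher and 7 lower, with list medians of -0.05, -0.63 and -0.40. Cyp2a5, a cytochrome P450 enzyme, was not apart at ZT8 (-0.23) and fell below control by 0.90 at ZT12 and 1.96 at ZT16. Fmo5, a flavin monooxygenase, gave -0.69, -1.15 and -1.80, all called. Aldh1a1, a retinaldehyde dehydrogenase, was lower by 2.48, 2.91 and 2.91, with no test of a difference between times passed (ZT16 against ZT8 adjusted p = 0.309). Por, the electron donor of the P450 enzymes, went the other way, higher by 1.38 at ZT8 and 0.86 at ZT12 and not called at ZT16 (0.18, adjusted p = 0.310).

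Of 4 genes reported to be repressed by Nfil3, 0, 2 and 2 were called, all lower in knockouts, with and without knockout ZT8 replicate 3. With 35.5%, 42.3% and 40.0% of all genes called, 2 of 4 is near that share. The ZT8 count was 1 with normexp and in the authors' table, and the ZT12 count 1 over probes well above background on all arrays, which leave out the Fgf21 probe used here. Fgf21, a fasting hormone of the liver, gave -1.21, -2.60 and -0.75, called at ZT12 (limma adjusted p = 1.7e-04), where 3 of 6 knockout arrays were well above background. At ZT8 Fgf21 was called with normexp (-0.78, adjusted p = 0.0146), in the authors' deposited table (-0.98, adjusted p = 0.00952) and without any of 4 single arrays. Cyp7a1, the rate-limiting enzyme of bile acid synthesis, gave -0.22, 0.08 and 0.12, none called (95% interval at ZT16 -0.59 to 0.83). The other 2 are Per1 and Per2, given above.

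**Figure D4:**
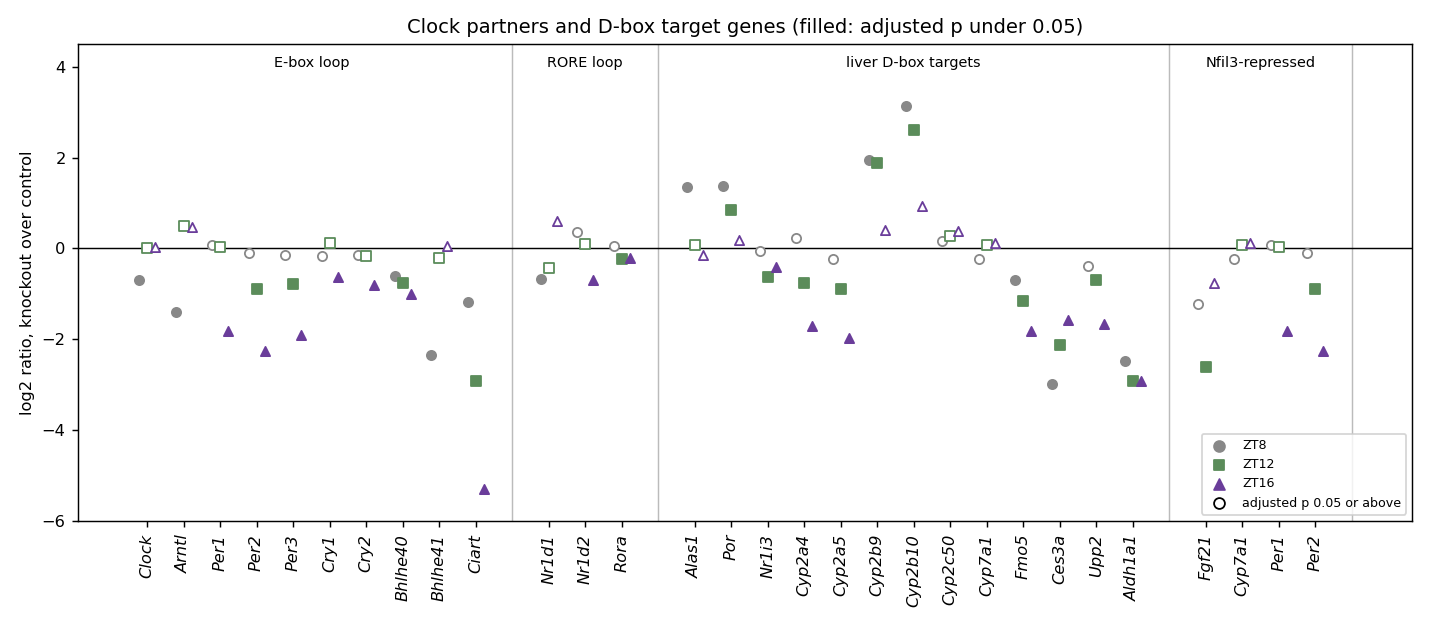
Log2 ratio of knockout over control (vertical axis) for the genes of 4 lists (horizontal axis) at ZT8 (circles), ZT12 (squares) and ZT16 (triangles); filled symbols have a limma adjusted p under 0.05. At ZT16 no filled triangle lies above 0, and at ZT8 and ZT12 filled symbols lie on both sides among the liver D-box targets. Ciart at ZT16 and Bhlhe41 at ZT8 were not well above background in knockouts, nor was Bhlhe41 at ZT12 and ZT16 in either genotype. Some arrays also fell short for Arntl at ZT8, Fgf21 at ZT12 and ZT16 and Nr1d1 at ZT16. The symbols of these genes at these times are not exact.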

How the data were processed

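Per the labels' protocols, 200 ng of total liver RNA per mouse was labelled with Cy3 and read in 1 colour on an Agilent mouse array (SurePrint G3, GE v2), and the submitters' processing notes name Agilent Feature Extraction 10.10.1.1 and limma. The deposited scanner files hold fluorescence intensity per spot, background subtracted but not normalized between arrays per the file headers, with deposited flags as other values of 0 or 1. The authors' deposited table of log2 values for 32801 probes is quantile normalized (its sorted columns are identical), and was used as an alternative.

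Here log2 processed signal was taken minus each array's 75th percentile, outlier spots were left out, and spots of a probe were averaged. Probes well above background on at least 6 of 36 arrays were kept (34769), 91 with a missing value were dropped, and 34678 were fitted. The probe with the highest mean stood for a gene, leaving 22892 genes, of which 17789 were well above background on all arrays. limma 3.58.1 in R 4.3.3 fitted 6 group means with wash batch as a fixed effect (28 residual degrees of freedom), and p-values were adjusted over all genes. On simulated data the fit recovered 98 of 100 genes changed 4-fold and 84 of 100 changed 2-fold in the ZT16 comparison.

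Members and lists were chosen with earlier results of these data known. Genes named beside the members are up to 4 per list with the smallest limma p in any genotype comparison, and the 3 most and 1 least correlated with each member. Npas2, Rorb and Ces3b did not pass the filter. Some genes of this rule and the counts of 1 list are not reported here. Alternatives changed the normalization, background correction, filter, probe rule, batch term, array weights, arrays fitted and single arrays. Replicate numbers did not pair mice: of 90 same-numbered pairs 15 correlated above 0.1. The wash batch is the label's own. Arrays give no counts, so their number limits the precision.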

Additional observations from a re-analysis of the deposited data

Results flagged for a closer look

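Of 54 sets of 6 arrays (9 probes in 6 groups), 5 held an array whose gap to its neighbour was large against the range of the group, where chance gives about 1 in 20, or 2.7. Knockout ZT8 replicate 3 accounted for 3 of them: 3.22 on Tef probe A_52_P485573 (others 3.86 to 4.03), 0.0840 on Nfil3 probe A_52_P500027 (others 1.34 to 1.73) and 0.341 on Nfil3 probe A_55_P2035320 (others 1.63 to 2.06). Since the Nfil3 probes share 53 bases, theirs count as nearly 1 reading. Control ZT12 replicate 6 read 6.69 on Tef probe A_55_P1979893 (others 6.15 to 6.26), and it was also the highest of its group for Dbp. Knockout ZT16 replicate 3 read -2.72 on Tef probe A_55_P2912692 (others -1.55 to -0.88).

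The genotype effect differed between ZT16 and ZT8 by limma's test of that difference for Dbp (-1.22), Tef (-1.48) and Hlf (-0.91), and for Tef between ZT16 and ZT12 as well (-0.91). Among the other named genes it moved down for Ciart (-4.11, with the ZT16 knockouts not well above background), Per2 (-2.16), Per1 (-1.87), Per3 (-1.75, though -1.03 and not called in the authors' deposited table, adjusted p = 0.454), Cyp2a5 (-1.73), Por (-1.20), Fmo5 (-1.12) and Nr1d2 (-1.05), and up for Nr1d1 (1.29). It also moved up for Clock, Arntl and Bhlhe41, given with the E-box loop above together with the limits of the last pair.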

How the results depend on the processing

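The falls of Dbp, the knockout falls of Tef, the rise of Nfil3 from ZT8 to ZT16, and the lower Dbp, Tef and Hlf in knockouts at ZT16 kept their direction and their call under every alternative fitted over all genes and with each of the 36 arrays left out in turn. Of the values recomputed under alternatives other than leaving out an array or a batch, 726 kept direction and call, 25 gained a call, 16 lost one and 6 turned sign. With 1 array left out, 2156 kept both, 19 gained a call, 34 lost one and 23 turned sign. Except where arrays or genes were removed by construction, the cause of a difference between settings was not tested. The limits are these. A group has 6 mice at 3 times, so no period or peak can be read. The knockout differences near 0.4 on the log2 scale are close to what the error allows. All differences below are log2, knockout minus control or later minus earlier, with limma's adjusted p where a call turned.

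Fitting only the groups compared, which leaves fewer arrays to estimate the spread, gave -0.70 for Dbp (adjusted p = 0.0857), -0.31 for Tef (0.0644) and 0.42 for Nfil3 (0.0325, called) at ZT12, and -0.46 for Hlf at ZT8 (0.118). Between times it gave -0.32 for Tef from ZT8 to ZT12 in controls (0.0273, called), -0.65 for Hlf over the same hours in knockouts (0.155) and 0.50 for Nfil3 from ZT12 to ZT16 in knockouts (0.0488, called). Array weights called Tef at ZT8 (0.33), Nfil3 at ZT12 and ZT16 (0.41 and 0.37), Tef from ZT8 to ZT12 in controls (-0.33), Nfil3 from ZT12 to ZT16 in controls (0.50) and knockouts (0.46), and the Tef effect at ZT12 against ZT8 (-0.62). They turned Hlf in controls from ZT8 to ZT12 to -0.0085.

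The Tef step from ZT8 to ZT12 in controls was also called with quantile normalization (-0.45), the authors' table (-0.48), slide as a fixed block (-0.37) and the mean of all probes (-0.58). Nfil3 was called at ZT12 and ZT16 with quantile normalization (0.54 and 0.53) and the authors' table (0.53 and 0.53), and at ZT12 with normexp (0.44). Slide as a fixed block ended the Dbp effect at ZT16 against ZT8 (-0.998, adjusted p = 0.0635) and turned Hlf in controls from ZT8 to ZT12 to -0.059. The Nfil3 effect at ZT16 against ZT12 turned to 0.0081 with slide and 0.0037 in the authors' table. Without the filter on dim probes, which adds genes to the adjustment, Tef at ZT12 was not called (-0.32, adjusted p = 0.0622), nor was the Hlf F test (0.0514), which was also lost without wash batch (0.0854). The Dbp F test was called without wash batch (0.0358), with array weights (0.0260) and over probes well above background on all arrays (0.0397). Per1 at ZT12 turned to -0.014 without wash batch and -0.017 with only the groups compared.

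The exact permutation p (unadjusted) of Dbp at ZT12 was 0.0758 with quantile normalization, 0.0346 with normexp and 0.0931 in the authors' table, none of which passed after adjustment. Tef at ZT8 passed with quantile normalization (0.0303), and Nfil3 at ZT16 did not with normexp (0.0325). The correlation of Tef with Nfil3 turned to -0.056 with quantile normalization and -0.11 in the authors' table. By probe, quantile normalization gave 0.40 for Tef A_52_P173309 at ZT8 and -0.21 for Tef A_52_P485573 at ZT12, both no longer called, and 0.49 for Nfil3 A_52_P500027 at ZT16, called. Normexp called the effect of A_52_P173309 at ZT12 against ZT8 (-0.59) and ended the F test of Dbp A_55_P2032079 (0.0596).

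The replicate number as a block ended the Tef call at ZT12 (-0.32, adjusted p = 0.0528) and no other call of the 4 genes. Same-numbered mice had a median correlation of 0.020, 15 of 90 pairs exceeded 0.1 and 5 of 36 arrays correlated best with their own number, so the numbers do not pair the mice.

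With 1 array left out in turn, the genotype difference of Dbp ran from -0.17 to 0.0055 at ZT8 and from -0.91 to -0.55 at ZT12, that of Tef from 0.20 to 0.36 and from -0.39 to -0.26, and that of Hlf at ZT8 from -0.61 to -0.30. That of Nfil3 ran from 0.030 to 0.37 at ZT8, 0.35 to 0.49 at ZT12 and 0.31 to 0.49 at ZT16. Knockout ZT8 replicate 3 turned most of these calls, and control ZT12 replicate 6 those of Dbp and Tef at ZT12. The Tef call at ZT12 was also lost without control ZT12 replicate 1 or 4 or knockout ZT12 replicate 1, 5 or 6. Nfil3 at ZT12 was also called without knockout ZT12 replicate 2. Between times, Tef in controls from ZT8 to ZT12 ran from -0.39 to -0.29. Hlf in controls ran from -0.049 to 0.061 over ZT8 to ZT12, -0.0080 to 0.16 over ZT12 to ZT16 and -0.0024 to 0.17 over ZT8 to ZT16. Hlf in knockouts ran from -0.75 to -0.44 over ZT8 to ZT12, losing its call without knockout ZT8 replicate 2 or 5 or knockout ZT12 replicate 1. Nfil3 from ZT12 to ZT16 ran from 0.41 to 0.57 in controls and 0.36 to 0.52 in knockouts. The effect at ZT12 against ZT8 ran from -0.68 to -0.50 for Tef and -0.76 to -0.44 for Hlf, each called only without knockout ZT8 replicate 3. The Nfil3 effect at ZT16 against ZT12 ran from -0.13 to 0.054. The F test's adjusted p ran from 0.0120 to 0.114 for Dbp, with 5 single arrays that bring it under the threshold, and from 0.00108 to 0.0639 for Hlf, with 4 that take it over.

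Permutation p-values ranged, with 1 array left out, from 0.418 to 0.829 (Dbp), 0.00216 to 0.175 (Tef), 0.00433 to 0.117 (Hlf) and 0.0130 to 0.978 (Nfil3) at ZT8, from 0.0130 to 0.0693 for Dbp at ZT12 and from 0.0108 to 0.0649 for Nfil3 at ZT16, the last 2 failing after adjustment in 9 of the 12 cases each. Nfil3's correlations ran from -0.34 to 0.048 with Dbp, -0.29 to 0.30 with Tef and -0.29 to 0.35 with Hlf, lowest each time without knockout ZT8 replicate 3. Uncalled differences near 0 turned sign as well: Per1 at ZT8 (-0.025 to 0.17) and ZT12 (-0.095 to 0.23), Nr1d2 at ZT12 (-0.028 to 0.24), and Cyp7a1 at ZT8 (-0.38 to 0.051), ZT12 (-0.0998 to 0.28) and ZT16 (-0.12 to 0.31).

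Within single wash batches, with 1 to 3 mice per group and no test, 28 of 144 values moved by more than the spread between mice. In batch 1 these were Tef in knockouts from ZT8 to ZT12 (-0.61) and its effect over those hours (-0.26), Hlf between genotypes at ZT16 (-1.79), Hlf in controls from ZT12 to ZT16 (0.51) and its effect there (-0.74), and for Nfil3 the ZT8 difference (-0.54), the knockout rise to ZT12 (2.17) and ZT16 (2.62), and the effect against ZT8 at ZT12 (0.80) and ZT16 (0.72). In batch 2 they were the control steps of Dbp and Tef from ZT12 to ZT16 (-1.66 and -0.064), Tef in knockouts from ZT8 to ZT16 (-2.38), its effect at ZT16 against ZT12 (-1.24) and ZT8 (-1.86), and Nfil3 at ZT8 (0.47). In batch 3 they were the Dbp effect at ZT16 against ZT12 (-0.071), Tef at ZT12 (-0.67), the Tef knockout steps (-1.18, then -0.85) and effects (-1.01, then -0.38), the second Hlf knockout step (0.044) and effect (0.061), the Nfil3 knockout rise to ZT12 (1.26) and ZT16 (1.67), and the Nfil3 effect against ZT8 at ZT12 (-0.0997) and ZT16 (-0.12).

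Over all genes, the count called moved by more than 1.5 times in some settings. For controls from ZT12 to ZT16 it went from 830 to 491 without the filter, 336 with slide and 327 with only the groups compared, which also took knockouts from 3030 to 614 (ZT8 to ZT12), 2878 to 1672 (ZT12 to ZT16) and 6607 to 4316 (ZT8 to ZT16). The effect at ZT12 against ZT8 went from 287 to 133 without the filter, 169 with slide, 190 with the mean of probes, 938 with array weights and 941 without knockout ZT8 replicate 3. The effect at ZT16 against ZT12 went from 449 to 254 without the filter and 1080 with array weights, and that at ZT16 against ZT8 from 2233 to 4011 with array weights. The F test went from 1937 to 1275 without the filter, 3686 with array weights and 2987 without knockout ZT8 replicate 3. Other single arrays moved these counts too. With 1 array left out in turn, controls from ZT12 to ZT16 ran from 434 (without control ZT16 replicate 6) to 1047, the effect at ZT12 against ZT8 from 143 (without knockout ZT8 replicate 5) to 941, and the effect at ZT16 against ZT12 from 247 (without knockout ZT16 replicate 2) to 668. The list counts without knockout ZT8 replicate 3, given beside the lists, were chosen after seeing the data.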
